A study of Mus musculus with 6 samples.

Results

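The loci of 10 integrin genes, Itga2, Itga3, Itga5, Itga6, Itgav, Itgb1, Itgb3, Itgb4, Itgb5 and Itgb6, were examined for accessible chromatin in NMuMG, a line of epithelial cells derived from healthy mouse mammary tissue. The rule for the genes used names alone, and the list was drawn up with earlier results of these data known. For each gene, all accessible regions within 100 kb of its 5′ end were taken. These windows held 116 of the 39435 regions found over the 3 conditions of the study, and no region fell in the windows of more than 1 of the 10 genes.

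Accessibility was measured by ATAC-seq, in which the transposase Tn5 inserts sequencing adapters into open DNA. All cells were first deprived of serum and insulin for 6 h. They then received vehicle for 2 h or 5 ng/ml TGFβ1 for 2 h or 12 h, with 2 biological replicates each, 6 samples in all. The treatment protocol names HCl with BSA as the vehicle, and the sample labels name Tris-HCl with BSA. Vehicle cells were collected at 2 h, so in the comparison with 12 h the length of treatment and of culture without serum cannot be told apart. Both comparisons with TGFβ used the same vehicle list.

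The authors combined the replicates of each condition into 1 list of reproducible peaks. The lists therefore gave 1 value per condition, without a spread between replicates, and no test between conditions was possible. The lists hold no read counts. The study states read totals for each library, with fewer filtered reads in both 12 h libraries than in both vehicle libraries, and these totals were not used here. A region is said to be gained below when both TGFβ lists held it and the vehicle list did not. This is a statement on list membership, not on signal, since an absent region may have lain just under the peak threshold. Shares carry 95% Wilson intervals, which cover counting error only. Regions are not replicates of a condition, and regions of 1 locus are not independent.

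Integrins are receptors made of an alpha and a beta subunit that span the plasma membrane. Outside the cell they bind matrix proteins such as collagen, laminin and fibronectin, and inside it they connect to the cytoskeleton. Mammary epithelial cells rest on laminin through integrins with the alpha 3 and alpha 6 chains, and integrins with the alpha v chain can release TGFβ from its latent complex. When epithelial cells take on mesenchymal traits, as NMuMG cells do under TGFβ, the set of integrins at their surface is known to shift.

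The epithelial label was checked on marker genes. Regions covered the 5′ ends of the keratin genes Krt8 and Krt18 in all 3 lists and that of the adherens junction gene Cdh1 in both TGFβ lists. That of Cldn4 was covered at 12 h alone, and those of Krt7 and Epcam in no list. None of the 3 lists covered the 5′ end of any of the 3 leukocyte, 2 endothelial or 2 muscle markers. Of all protein-coding genes, 35.5% had the 5′ end in all 3 lists and 57.1% in none, so an uncovered 5′ end was common.

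In the integrin windows, 42 regions were found in the vehicle list, 96 in the 2 h list and 99 in the 12 h list. These numbers were 2.29 and 2.36 times the vehicle number, against 1.94 and 1.98 times over all regions of the lists. The length covered was 29.6 kb in vehicle, 69.7 kb at 2 h and 74.3 kb at 12 h. Each of the 10 windows held more regions in both TGFβ lists than in the vehicle list. The share of all protein-coding gene windows with such a rise was not determined.

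Of the 116 regions, 55 were in the 2 h list and not in the vehicle list (47.4%, Wilson interval 38.6 to 56.4), where the share over all 39435 regions was 41.4%. In the 12 h list, 59 had no vehicle region (50.9%, 41.9 to 59.8), against 44.8% over all regions. Gained regions, present in both TGFβ lists, numbered 40 (34.5%, 26.5 to 43.5), against 28.5% over all regions and 23.8% over the windows of all protein-coding genes, in which a region counts once for each window that holds it. With both TGFβ lists cut to the length of the vehicle list, gained regions numbered 14 of 77 (18.2%, 11.2 to 28.2), against 12.6% over all regions. Another 40 regions were in all 3 lists (34.5%), against 38.4%. The intervals of all 4 shares included the share over all regions at full list length. The interval of the gained share lay above the share over gene windows. With the shortened lists, 26 of 77 were in the 2 h list and not in vehicle (33.8%, 24.2 to 44.9), an interval above the 21.3% of all regions. At 12 h, 23 of 77 were (29.9%, 20.8 to 40.8), an interval that included the 23.8% of all regions. The interval of the gained share with shortened lists included its 12.6% too.

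Regions of a single TGFβ list were close to the background too. The 2 h list alone held 15 (12.9%, 8.0 to 20.2), where the share over all regions was 12.9%. The 12 h list alone held 19 (16.4%, 10.7 to 24.2), against 16.3%. Only 2 of the 116 regions were in the vehicle list and missing at 12 h (1.72%, 0.474 to 6.07), against 3.41% over all regions.

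Away from start sites, meaning over 1000 bp from the start of any annotated transcript, 32 of 86 integrin regions were gained (37.2%, 27.7 to 47.8), against 34.7% of all such regions. Gained regions had a median width of 619 and 525.5 bp in the 2 h and 12 h lists. Of the 40, 16 lay upstream of the 5′ end, 22 downstream and 2 over it, and 21 were within the body of the integrin gene itself. For all 116 regions these numbers were 47, 61, 8 and 52. For 69 of the 116 regions the integrin gene had the nearest 5′ end of any protein-coding gene, and 29 of these were gained (42.0%, 31.1 to 53.8). The share was 28.5% over all regions and 34.7% over those away from start sites, and the 69 were not matched to either set by position. The other 47 lay nearer to the 5′ end of another gene.

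**Figure D1:**
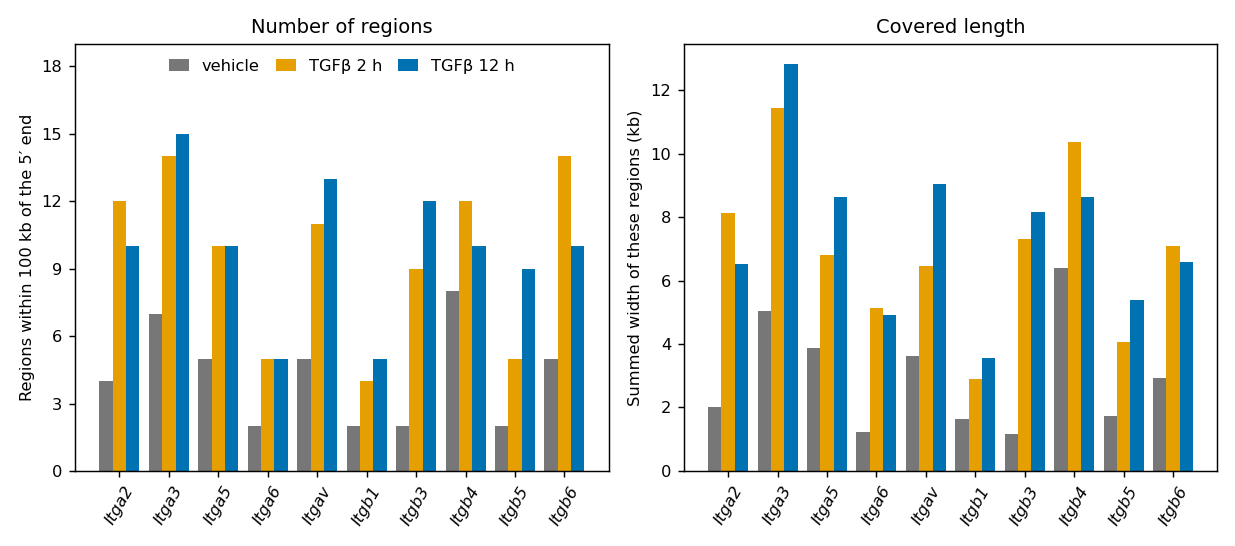
Number of regions (left) and their summed width in kb (right) within 100 kb of the 5′ end of each integrin gene, in the vehicle list, the 2 h TGFβ list and the 12 h TGFβ list. Each bar is 1 list made from both replicates, so there is no error bar. At all 10 genes both TGFβ bars stand above the vehicle bar, from 4 and 5 regions against 2 at Itgb1 to 14 and 15 against 7 at Itga3. Over all regions the 2 h and 12 h lists held 1.94 and 1.98 times the vehicle number.

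The genes differed in which TGFβ list held more of their regions. Itga3, Itgav, Itgb1, Itgb3 and Itgb5 had more regions at 12 h than at 2 h, Itga2, Itgb4 and Itgb6 had fewer, and Itga5 and Itga6 had equal numbers. All 19 regions of the 12 h list alone were thus at 7 genes, with none at Itga2, Itgb4 or Itgb6. Of the 15 regions of the 2 h list alone, none was at Itgb1, Itgb3 or Itgb5. Over all regions, 12.9% were in the 2 h list alone and 16.3% in the 12 h list alone. The share of all protein-coding gene windows with more, fewer or equal regions at 12 h was not determined. These orders rest on 1 list per time point and were not tested.

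**Figure D2:**
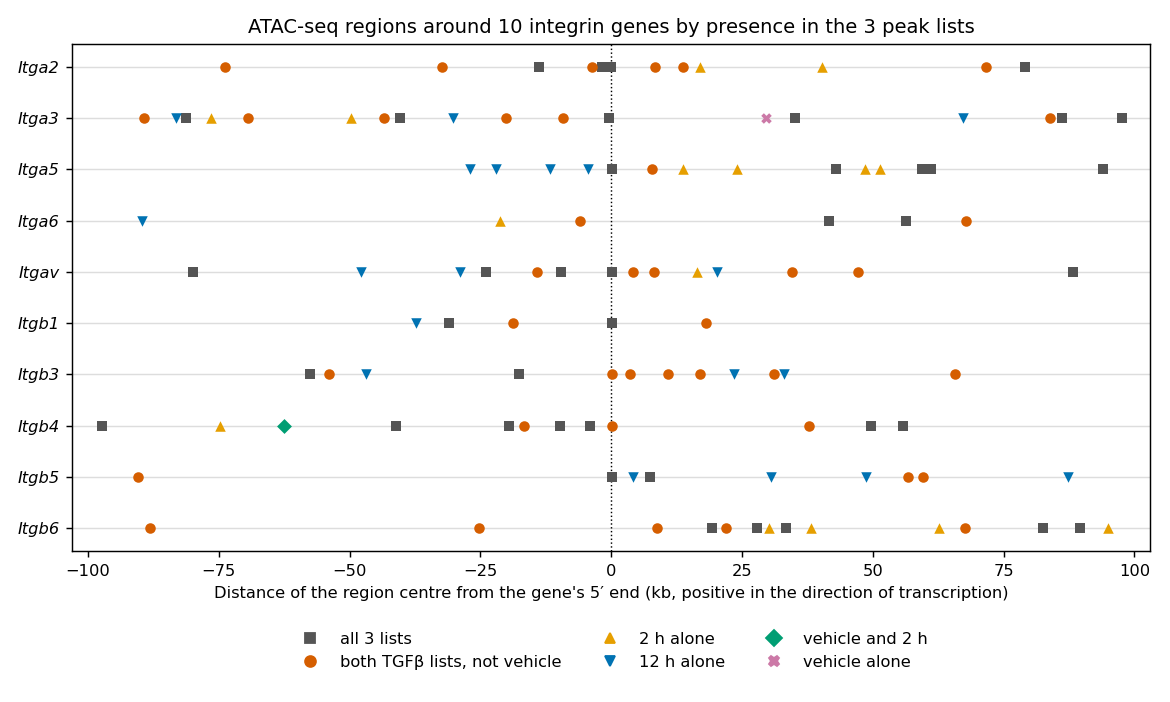
Position of the 116 regions around the 10 integrin genes, as the distance in kb of the region's centre from the 5′ end, positive in the direction of transcription. Symbols give the lists that held the region: grey squares stand for all 3 lists, dark orange circles for both TGFβ lists without vehicle, triangles for 1 TGFβ list alone, the diamond for vehicle with 2 h and the cross for vehicle alone. The 7 gained regions of Itgb3 and the 4 regions at 12 h alone upstream of Itga5 can be seen.

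The 5′ end of the gene lay in a region at 6 of the 10 integrin genes in the vehicle list, 8 at 2 h and 7 at 12 h. Among all 22340 protein-coding genes the shares were 35.9% in vehicle, 41.4% at 2 h and 41.6% at 12 h. All 3 lists covered the 5′ ends of Itga2, Itga3, Itga5, Itgav, Itgb1 and Itgb5, as they did for 35.5% of protein-coding genes. That of Itgb3 was covered in both TGFβ lists and not in vehicle, the pattern of 4.72% of protein-coding genes. That of Itgb4 was covered at 2 h alone. Those of Itga6 and Itgb6 were covered in no list, as for 57.1% of protein-coding genes.

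Of the beta subunits, Itgb1 encodes the chain with the widest choice of alpha partners, among them the alpha 2, 3, 5 and 6 chains. The gene lies on the plus strand at chr8:131209554-131257100 (mm9). Its window was the smallest set, with 5 regions, of which the vehicle list held 2, the 2 h list 4 and the 12 h list 5. The region over the 5′ end, in an untranslated exon, was 1109, 1089 and 1112 bp wide in the vehicle, 2 h and 12 h lists, so its width hardly moved. By contrast, the region whose edge lay 30542 bp upstream was 512, 573 and 1043 bp wide in the vehicle, 2 h and 12 h lists, which is 2.04 times the vehicle width at 12 h. That region was 1 peak in vehicle and at 2 h, and was merged from 2 peaks at 12 h. Both gained regions flanked the promoter, one 18345 bp upstream with 763 and 767 bp in the 2 h and 12 h lists, the other 17933 bp downstream in an intron with 471 bp and 427 bp.

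Itgb3, whose product pairs with the alpha v chain to bind vitronectin and other matrix proteins, had the most gained regions of the 10 genes. It lies on the plus strand at chr11:104469370-104531790. Of its 12 regions the vehicle list held 2, the 2 h list 9 and the 12 h list 12, and 7 were gained. This number of gained regions was at percentile 99.5 of the windows of all protein-coding genes, ties at mid-rank, where the median window had 1. The number of regions of any kind was at percentile 90.8. The 2 vehicle regions both lay upstream, one at the shared start of Cdc27 and Myl4 and one in an intron of Myl4, 17348 bp upstream, with 236, 546 and 507 bp in the vehicle, 2 h and 12 h lists, 2.31 and 2.15 times the vehicle width. Thus no region within the Itgb3 gene was in the vehicle list.

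At 2 h, a region at chr11:104469007-104469901 (895 bp) covered the Itgb3 5′ end, and at 12 h the region was 669 bp wide. The widest gained region of the locus began 9788 bp downstream in an intron and measured 2142 and 2066 bp in the 2 h and 12 h lists, merged from 3 peaks in each list. Further gained regions lay in introns, 3359 bp, 16588 bp and 30823 bp downstream of the 5′ end. The remaining 2 of the 7 lay outside the gene, one 53649 bp upstream in an intron of Myl4 and one 65341 bp downstream, past the end of Itgb3.

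The 200 bases upstream of the Itgb3 5′ end, at chr11:104469170-104469369 on the plus strand of mm9, are shown first. Both TGFβ lists covered that end and the vehicle list did not. Those of Itgb4, at chr11:115835823-115836022 on the plus strand, are shown beside them, as the 2 h list alone covered its 5′ end. The Itgb4 region counted as gained too, with its 12 h part just downstream of that end. Capitals mark GGGCGG on either strand, the GC box bound by factors of the SP1 family. The Itgb3 stretch held 3 of them, the last pair overlapping, with 70.0% G and C, and the Itgb4 stretch held none, with 53.5%.
Itgb3 upstream: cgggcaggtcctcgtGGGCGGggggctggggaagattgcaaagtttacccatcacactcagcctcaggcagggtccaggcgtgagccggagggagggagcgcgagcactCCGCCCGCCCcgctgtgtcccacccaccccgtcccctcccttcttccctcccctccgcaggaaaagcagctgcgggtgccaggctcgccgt
Itgb4 upstream: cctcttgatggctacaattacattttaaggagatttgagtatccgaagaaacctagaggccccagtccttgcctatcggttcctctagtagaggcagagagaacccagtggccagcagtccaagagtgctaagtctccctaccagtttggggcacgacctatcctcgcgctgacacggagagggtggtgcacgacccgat
Over the same 200 bases of all 22340 protein-coding genes, 38.0% held GGGCGG on either strand and the median content of G and C was 55.5%. Neither stretch held the AP-1 motif TGAGTCA on either strand, the SMAD palindrome GTCTAGAC or TATAAA on the strand of the gene. These occurred in 3.12%, 0.0985% and 6.97% of all such stretches.

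AP-1, a dimer of JUN, FOS and related proteins, binds TGAGTCA, which reads TGACTCA on the other strand. SMAD proteins carry the TGFβ signal from the receptors to DNA, and GTCTAGAC is the palindrome they bind. Sequences around such matches are printed for the regions on which the descriptions of single loci turn. They come from the mm9 genome, read on the strand of the gene, and in all of them capitals mark every match to either motif, on either strand. A match is a description of the letters and not of binding.

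In the 2142 bp gained region of the Itgb3 intron the match nearest to the centre lay within chr11:104479956-104480016, plus strand. This region and its sequence were chosen after the values were seen.
Itgb3 intron: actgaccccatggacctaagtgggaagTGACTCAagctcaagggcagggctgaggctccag

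Itgb5, whose product pairs with the alpha v chain to bind vitronectin, lies on the plus strand at chr16:33829751-33949239. The vehicle list held 2 of its 9 regions, the 2 h list 5 and the 12 h list 9. Of these, 3 were gained and 4 were in the 12 h list alone, all 4 in introns of Itgb5. The region over the 5′ end was 1134, 1388 and 1221 bp wide in the vehicle, 2 h and 12 h lists. The matched region that widened most lay 6820 bp downstream in an intron, with 611, 1116 and 1086 bp in the vehicle, 2 h and 12 h lists, 1.83 and 1.78 times the vehicle width.

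The gained region of Itgb5 nearest to the 5′ end began 56222 bp downstream and joined neighbouring peaks of the TGFβ lists that did not overlap each other. The 2 h peak was at chr16:33886804-33887183 and the 12 h peak at chr16:33885973-33886392, so this region counted as gained through the merging of gaps under 1000 bp. Its match to the AP-1 motif lay in the 12 h peak, within chr16:33886222-33886282, plus strand, and is printed as the nearest gained region of the locus.
Itgb5 intron: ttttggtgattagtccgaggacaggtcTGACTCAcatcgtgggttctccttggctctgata

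Itgb6 encodes the epithelial partner of the alpha v chain, and the resulting receptor activates latent TGFβ. This gene maps to chr2:60436349-60560700 on the minus strand. The vehicle list held 5 of its 14 regions, the 2 h list all 14 and the 12 h list 10, with 5 gained regions and 4 at 2 h alone. Of the 14 regions, 12 lay within the Itgb6 gene, and no protein-coding gene other than Itgb6 had its 5′ end in the window. No list covered the 5′ end itself, nor any other annotated transcript start of the gene.

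The intron region 82056 bp downstream of the Itgb6 5′ end had the largest ratio at 12 h of all matched integrin regions, from 352 bp in vehicle to 868 and 1130 bp in the 2 h and 12 h lists, 2.47 and 3.21 times the vehicle width. The other matched regions of the same gene ranged from 0.791 to 1.38 times the vehicle width at 12 h. That 33006 bp downstream was 703, 650 and 633 bp wide in the vehicle, 2 h and 12 h lists, and that 18645 bp downstream went from 1069 bp to 929 bp and 846 bp. A region of the 2 h list alone, 38113 bp downstream and 321 bp wide, had the SMAD palindrome within 500 bp around its centre. Whether the palindrome lay inside the region or just beyond its edges was not determined.

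The first sequence is from the widened Itgb6 region, at chr2:60477806-60477866, minus strand, in a stretch that all 3 lists covered, and was chosen after the values were seen. The second is from the nearest gained region of the gene, 8607 bp downstream, at chr2:60551767-60551827, minus strand. That stretch lay in the 2 h region, chr2:60551717-60552081, but outside the 12 h region, chr2:60551901-60552093.
Itgb6 widened intron region: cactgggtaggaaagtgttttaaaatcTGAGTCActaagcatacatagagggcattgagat
Itgb6 gained intron region: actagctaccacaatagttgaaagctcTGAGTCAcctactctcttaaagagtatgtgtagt

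Itgb4 encodes the beta chain that pairs with the alpha 6 chain in hemidesmosomes, the anchors of epithelial cells on laminin. The gene lies on the plus strand at chr11:115836023-115869726, in a window with the 5′ ends of 6 other protein-coding genes. Its window was the best covered in vehicle, with 8 of 12 regions, against 12 at 2 h and 10 at 12 h. Most regions, 7, were in all 3 lists and 3 were gained.

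The 2 h list covered the Itgb4 5′ end with an 810 bp region at chr11:115835747-115836556. At 12 h a 390 bp region at chr11:115836092-115836481 began just downstream of that end and covered only the annotated starts 134 bp and 270 bp inside the gene. The vehicle list held neither. The AP-1 match of this region lies in an exon, so no sequence is printed.

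Upstream of Itgb4, the region whose edge lay 40640 bp away, at the start of Sap30bp, was 458, 618 and 811 bp wide in the vehicle, 2 h and 12 h lists. A second one, 18718 bp upstream in an intron of Sap30bp, went from 754 bp to 1302 bp and 1360 bp, 1.73 and 1.80 times the vehicle width. Its 2 h width was merged from 2 peaks. The window also held 1 of the 2 integrin regions missing at 12 h, 62042 bp upstream at the start of 1110017F19Rik, with 868 bp in vehicle and 746 bp at 2 h.

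Among the alpha subunits, Itgav encodes the alpha v chain, the common partner of the beta 3, beta 5 and beta 6 chains. This gene maps to chr2:83564554-83647073 on the plus strand. Of 14 regions the vehicle list held 5, the 2 h list 11 and the 12 h list 13, with 5 gained and 3 at 12 h alone. The region over the 5′ end kept its width, at 1337, 1302 and 1331 bp in the vehicle, 2 h and 12 h lists. The nearest gained region lay 4016 bp downstream in an intron, with 277 bp at 2 h and 246 bp at 12 h.

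The other matched regions of Itgav varied. That 79333 bp upstream, at the start of Zc3h15, was 894, 803 and 943 bp wide in the vehicle, 2 h and 12 h lists, and that 87977 bp downstream, at the start of Fam171b, 384, 733 and 608 bp. One 23055 bp upstream, at the start of a transcript outside protein-coding genes, was 784, 884 and 1862 bp wide in the vehicle, 2 h and 12 h lists. Its 12 h width was merged from 2 peaks, while the other lists held 1. Another 9290 bp upstream was 210, 358 and 533 bp wide in the vehicle, 2 h and 12 h lists, 1.70 and 2.54 times the vehicle width. It was the only integrin region to hold both AP-1 matches and the SMAD palindrome within 500 bp around its centre. The stretch with the palindrome at 83555052 to 83555059 and both AP-1 matches, chr2:83555042-83555180 on the plus strand, lay within the vehicle region and is printed for that reason. A gap of 64 bases separated the palindrome from the first AP-1 match, and the region was chosen after the values were seen.
Itgav upstream region: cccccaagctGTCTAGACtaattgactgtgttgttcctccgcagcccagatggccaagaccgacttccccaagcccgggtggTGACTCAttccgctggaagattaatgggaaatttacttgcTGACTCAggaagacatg

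Itga2 encodes the alpha chain of a collagen receptor. The gene lies on the minus strand at chr13:115626124-115722249, with no other protein-coding 5′ end in its window. Of 12 regions the vehicle list held 4, the 2 h list all 12 and the 12 h list 10. The 6 gained regions were spread over both sides, the nearest 3466 bp upstream with 383 and 381 bp in the 2 h and 12 h lists. The region over the 5′ end was the 1 integrin promoter that narrowed in both TGFβ lists by over 5%, from 568 bp in vehicle to 523 and 453 bp in the 2 h and 12 h lists, 0.798 times the vehicle width.

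Outside that promoter, the regions of Itga2 shared with vehicle were wider under TGFβ. The region 1419 bp upstream measured 326 bp in vehicle and 719 bp in both TGFβ lists. That 13269 bp upstream measured 462, 1170 and 1100 bp in the vehicle, 2 h and 12 h lists, 2.53 and 2.38 times the vehicle width. Its AP-1 match nearest to the centre, in the stretch chr13:115735964-115736024 on the minus strand, lay within the vehicle region and was chosen after the values were seen.
Itga2 upstream region: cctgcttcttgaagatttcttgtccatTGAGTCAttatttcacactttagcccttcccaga

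Itga3 encodes the alpha chain of an epithelial laminin receptor. This gene maps to chr11:94905788-94938115 on the minus strand, and its window, with 18 regions, was the fullest of the 10. The vehicle list held 7 of these, the 2 h list 14 and the 12 h list 15, with 6 gained. Only 3 of the 18 were nearest to Itga3 itself, as the 5′ ends of Ppp1r9b, Samd14, Pdk2, Dlx3 and Dlx4 also lay in the window.

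The Itga3 promoter widened most of all integrin promoters. The region was 786, 2145 and 2398 bp wide in the vehicle, 2 h and 12 h lists, 2.73 and 3.05 times the vehicle width, and joined 1 peak in vehicle, 2 at 2 h and 3 at 12 h. Here the window also held the only region of the vehicle list alone, 151 bp wide in an intron at chr11:94908410-94908560, with a peak score of 584 on a deposited scale that ran from 540 to 1000. This region was 1 bp above the minimum width.

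The gained region nearest to the Itga3 5′ end lay 8771 bp upstream and measured 730 and 954 bp in the 2 h and 12 h lists. This region held 2 AP-1 matches. Both lists covered the match nearest to its centre, within chr11:94947208-94947268, minus strand, printed as the nearest gained region of the locus.
Itga3 upstream region: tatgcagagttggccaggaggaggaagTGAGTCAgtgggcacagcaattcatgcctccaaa

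Itga5 encodes the alpha chain of the classical fibronectin receptor. The gene lies on the minus strand at chr15:103174720-103197194, with the 5′ ends of 6 other protein-coding genes in its window. The vehicle list held 5 of 14 regions, and both TGFβ lists held 10. These 10 were not the same regions. Only 1 region was gained, in a coding exon 7307 bp downstream, with 846 and 1119 bp in the 2 h and 12 h lists, while 4 regions were in the 2 h list alone and 4 in the 12 h list alone.

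The positions of these regions differed too. All 4 regions of Itga5 at 2 h alone lay downstream of the 5′ end, and all 4 at 12 h alone lay upstream. Those at 2 h alone were from 185 bp to 705 bp wide. Those at 12 h alone lay 3634 bp, 11227 bp, 21886 bp and 26709 bp upstream and were 1770 bp, 953 bp, 175 bp and 600 bp wide. The promoter region itself was 710, 848 and 1005 bp wide in the vehicle, 2 h and 12 h lists, 1.42 times the vehicle width at 12 h.

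The 1770 bp region at 12 h alone, merged from 2 peaks, was the widest integrin region found in a single list and held 3 AP-1 matches. None of these lay within the 500 bp around its centre, so the motif shares below count it as without a match. The match nearest to its centre, within chr15:103201093-103201153 on the minus strand, is printed for the width of the region, after the values were seen.
Itga5 upstream region: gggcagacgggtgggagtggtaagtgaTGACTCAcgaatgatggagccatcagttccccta

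Itga6 encodes the alpha chain that pairs with beta 4 in hemidesmosomes and with beta 1 elsewhere, both binding laminin. This gene maps to chr2:71583673-71696473 on the plus strand. Its window held 6 regions, of which the vehicle list had 2 and each TGFβ list 5, with 2 gained. The nearest gained one lay 5636 bp upstream, with 455 bp at 2 h and 405 bp at 12 h. The annotated 5′ end of the gene belongs to a processed transcript and lay in no region. A group of 3 protein-coding transcripts starts 41324 bp to 41467 bp further into the gene, and all 3 lists covered these starts, with 849, 1479 and 1219 bp in the vehicle, 2 h and 12 h lists.

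In an intron of Itga6 55906 bp downstream, a region measured 375, 716 and 1037 bp in the vehicle, 2 h and 12 h lists, 1.91 and 2.77 times the vehicle width. It held 4 AP-1 matches over its full width, the most of the regions named here, of which the stretch at chr2:71639849-71639909, plus strand, contains 2 within the vehicle region. The choice of this stretch was made after the values were seen.
Itga6 intron region: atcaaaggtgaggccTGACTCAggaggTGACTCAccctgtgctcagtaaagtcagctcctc

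**Figure D3:**
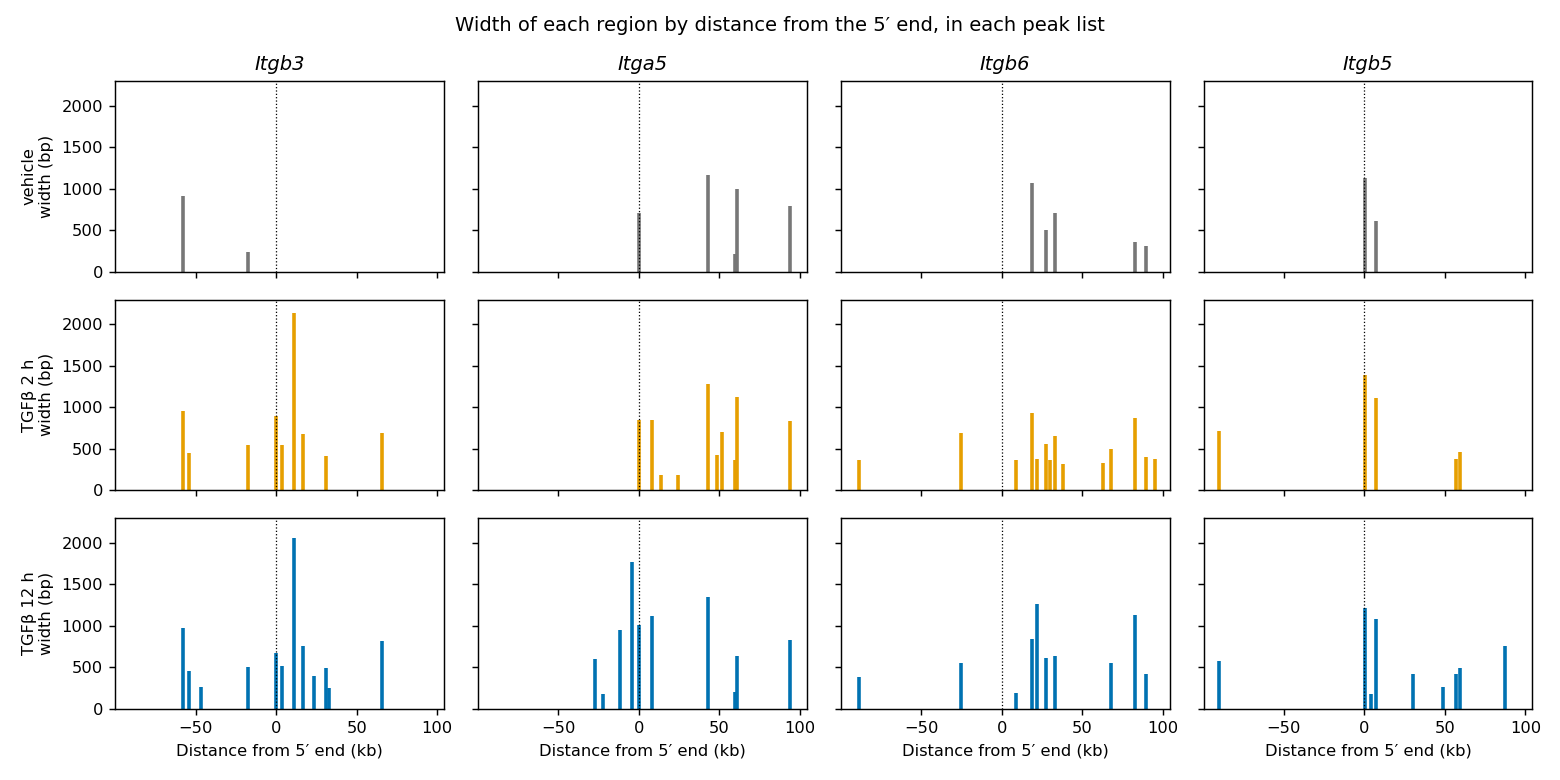
Width in bp of each region (vertical axis) by the distance of its centre from the 5′ end in kb (horizontal axis), for Itgb3, Itga5, Itgb6 and Itgb5, with 1 row for each of the 3 lists. Itgb3 has 2 stems in vehicle and 12 at 12 h, the tallest 2142 bp at 2 h, and the stems of Itga5 upstream of the 5′ end appear in the 12 h row alone.

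Widths were compared over the regions that matched 1 vehicle region to 1 TGFβ region. Of 41 such integrin regions at 2 h, 32 were wider than in vehicle (78.0%, against 82.8% over all matched regions), and of 40 at 12 h, 33 were (82.5%, against 83.6%). The median ratio of width to vehicle was 1.19 at 2 h and 1.36 at 12 h, against 1.24 and 1.28 over all matched regions. At least 1.5 times the vehicle width was reached by 14 of 41 at 2 h (34.1%, 21.6 to 49.5), where the share over all matched regions was 32.4%. At 12 h, 17 of 40 reached it (42.5%, 28.5 to 57.8), against 35.6%.

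The integrin regions split by position. Away from start sites, 11 of 22 matched regions were at least 1.5 times as wide at 2 h (50%, 30.7 to 69.3), against 37.7% of all such regions, and 13 of 22 at 12 h (59.1%, 38.7 to 76.7), against 40.5%. Within 1000 bp of a start site, 3 of 19 were at 2 h (15.8%, 5.52 to 37.6), against 28.0%, and 4 of 18 at 12 h (22.2%, 9.0 to 45.2), against 32.1%. The median ratio away from start sites was 1.44 at 2 h and 1.69 at 12 h, and at start sites 1.06 and 1.07. Over all matched regions these medians were 1.31 and 1.34 away from start sites, and 1.2 and 1.25 at them. Distal integrin regions thus had the higher shares and start sites the lower, while every interval included the share over all regions of its kind.

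Among the 6 integrin promoters in all 3 lists the ratio at 12 h ranged from 0.798 at Itga2 to 3.05 at Itga3. Itgav, Itgb1 and Itgb5 were at 0.996, 1.00 and 1.08. Itga3 was the 1 integrin promoter to pass 1.5.

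**Figure D4:**
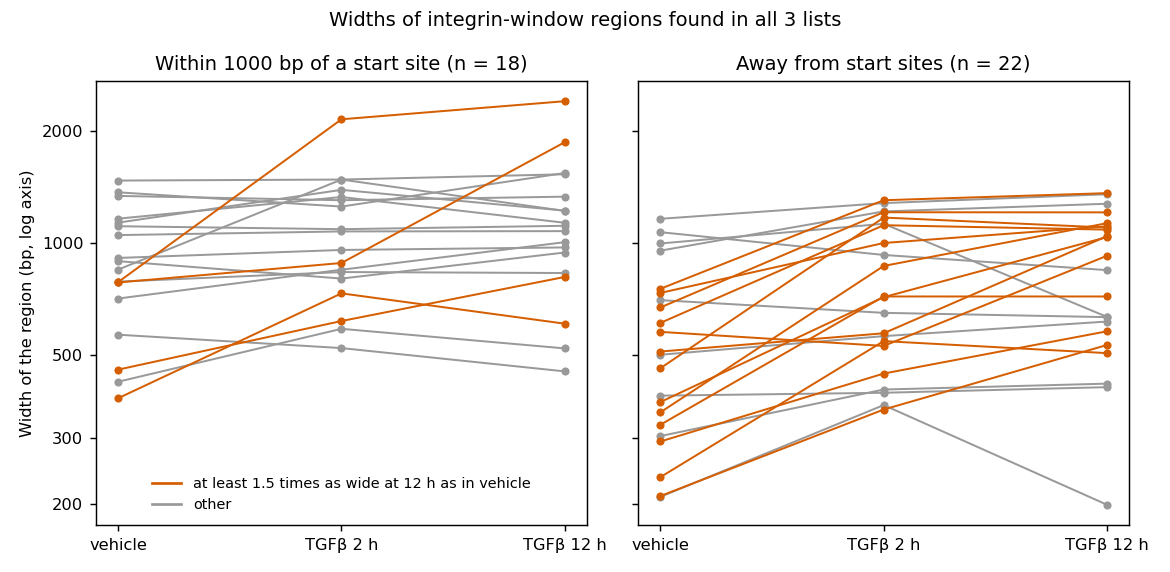
Width in bp (log axis) in each of the 3 lists for the integrin regions found in all 3, with the 18 within 1000 bp of a start site on the left and the 22 away from start sites on the right. Lines join 1 region, and dark orange lines mark those at least 1.5 times as wide at 12 h as in vehicle, 4 on the left and 13 on the right. Each point is 1 list made from both replicates, so there is no error bar.

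Motifs were searched as exact matches on both strands in a window of 500 bp around the centre of every region away from start sites. For a region under 500 bp wide the window passed its edges, so a counted match could lie outside the region. The AP-1 motif occurred in the window of 35 of 86 integrin regions (40.7%, 30.9 to 51.3), against 46.0% of all such regions. In the gained ones it occurred in 16 of 32 (50%, 33.6 to 66.4), against 51.6%, and in those of all 3 lists in 8 of 22 (36.4%, 19.7 to 57.0), against 48.6%. The share in gained integrin regions was thus close to that in gained regions in general. Taken over its full width, the gained region nearest to the 5′ end held no match at Itga2, Itga5, Itga6, Itgav, Itgb1 and Itgb3. Over their full width, 58.1% of all gained regions away from start sites held one. The sets differ, as the nearest gained regions of Itgb3, Itgb4 and Itgb5 lay within 1000 bp of a start site.

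The SMAD palindrome occurred in the same window of 2 of 86 integrin regions (2.33%, 0.640 to 8.09), against 1.00% of all regions away from start sites. These were the Itgav region 9290 bp upstream, in all 3 lists, and the Itgb6 region at 2 h alone. The consensus of CTCF, a factor that binds at domain borders, occurred in 7 of 86 (8.14%, 4.00 to 15.9), against 5.03%. Every one of these motif intervals included the share over all regions of its kind.

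Other genes of integrin adhesion were described for comparison. The windows of 16 other integrin genes, many of them known from leukocytes or platelets, held 100 regions, with 63 in vehicle and 87 in each TGFβ list, and 21 were gained (21.0%, against 28.5% of all regions and 23.8% over all gene windows). Among these 16 genes only the 5′ end of Itga1, which lies next to Itga2, was covered, in all 3 lists. The remaining 15 were covered in no list, as were 57.1% of protein-coding genes. Of the 10 genes this held for Itgb6 and Itga6, and the latter had protein-coding starts further inside that all 3 lists covered.

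For 14 other adhesion genes, most of them for proteins of the cytoplasmic side, 37 of 146 regions were gained (25.3%). The genes included those of talin, vinculin, paxillin and kindlin, and also Cd151, which encodes a membrane protein. Their 5′ ends were mostly in all 3 lists, at 9 genes including Tln1, Vcl, Pxn and Ilk, and that of the epithelial kindlin gene Fermt1 was gained. The share of protein-coding genes with the 5′ end in all 3 lists was 35.5%, and that with it gained 4.72%. For 10 genes of ligands, 30 of 98 regions were gained (30.6%). Both gained shares stand against 28.5% of all regions and 23.8% over all gene windows. The 5′ ends of Fn1, Spp1 and Lama5 were in all 3 lists and those of Lamb3, Col4a1 and Tgfb1 were gained, while those of Vtn, Tnc, Lama3 and Col1a1 were in none. Itgb3 was the 1 gene of the 10 integrin genes with the pattern of these 3 ligand genes. The windows of the other integrins shared 1 region, and those of the ligands 4, with the windows of the 10 genes.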

How the data were processed

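ATAC-seq of NMuMG cells (vehicle, TGFβ 2 h and TGFβ 12 h, 2 replicates each) was analysed from 1 peak list per condition. Per the methods of the study, the authors mapped reads to mm9 in the ATAC-seq pipeline of ENCODE, called peaks with macs2 and kept those reproducible between replicates. MACS2 2.1.2 and deepTools are named in the submitters' processing notes. The authors deposited chromosome, start and end of each peak, and in the vehicle list a score without a stated scale. In the TGFβ lists the same column numbers the lines and was not used. Read counts and values per replicate are not part of the lists. The study states read totals per library, which were not used here, so the effect of depth on the calls was not tested.

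Repeated intervals were counted once, intervals under 150 bp were dropped, and gaps under 1000 bp were merged, first per list and again for the union of the lists. Overlap of 1 bp placed a region in a list. Merging joins neighbouring peaks, so a width can include gaps of under 1000 bp. Start sites and genes were those of GENCODE vM1, and sequences were read from NCBIM37 (mm9). The members, gene lists and the named regions were chosen with earlier results of these data known. Named at each gene were the region at the 5′ end, the nearest gained region, the matched region with the largest 12 h to vehicle ratio and each vehicle region missing at 12 h. Others were picked after their values were seen. One gene of the ligand list is not reported here. Alternatives covered merging, minimum width, list length, window, overlap, ratio and motif window. Overlap and merging code was tested on simulated intervals. Python 3.11.15, numpy 2.4.6, pandas 2.3.3, matplotlib 3.10.9 and pyfaidx 0.9.0.4 were used.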

Additional observations from a re-analysis of the deposited data

How the results depend on the processing

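The length of the lists mattered most. When both TGFβ lists were cut to the interval number of the vehicle list, keeping the widest, 77 integrin regions were left and 14 were gained. The share not in vehicle was then 33.8% at 2 h, 29.9% at 12 h and 18.2% in both, against 21.3%, 23.8% and 12.6% over all 24699 regions so obtained. Gained regions were left at 9 genes, with none at Itga6, and the 5′ end of Itga2 was no longer covered at 12 h while that of Itgb3 still was in both TGFβ lists. With the wider 50% of the intervals of each list, 72 regions were left, 21 gained and 22 in all 3 lists. A window of 50 kb held 25 regions in all 3 lists, and one of 200 kb held 186 regions, 71 of them in all 3 lists. At a ratio of 2, 12.2% of matched regions at 2 h and 22.5% at 12 h passed. The AP-1 motif was found in 18.6% of distal regions within 200 bp around the centre. These settings changed the number of regions, the window or the limits, and the reason for each shift was not tested. Of 64 alternative values, 50 stayed within the interval or within 1.5 times the reported value, 14 moved and 0 reversed. No paired analysis was possible because each list was made from both replicates and holds no value per replicate, and for the same reason no replicate could be left out. The lists cannot show changes in signal within a region, and a region missing from a list may lie just below the threshold of the peak calls.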
